A study of Mus musculus with 4 samples.

Results

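The genes described here are 35 genes of fatty acid and sterol synthesis, chosen by name from the pathway with earlier results of these data known. They fall into 5 regulators of the SREBP transcription factors, 14 genes of fatty acid and glycerolipid synthesis (the fatty acid branch) and 16 genes of sterol synthesis and transport (the sterol branch). Of the 35 genes, 34 had at least 1 probe set that could be named, 77 probe sets in all, out of 45101 on the array and 18193 named genes. The expression of Acat2 was not analysed here, but its promoter is among those searched below. All 34 genes reached the filter on low signal, as did 62 of their 77 probe sets.

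Kidney RNA of female FVB/NJ mice was measured in 4 groups. The first 2 were nondiabetic, after a sham operation or after removal of one kidney (uninephrectomy), and the other 2 were diabetic, again sham-operated or uninephrectomised. Diabetic mice carried the OVE26 transgene, which makes the FVB strain diabetic early in life through expression of calmodulin in pancreatic beta cells, and nondiabetic mice were control littermates without it. Surgery took place at the age of 2 months, and kidneys were taken 10 weeks later, at 4.5 months. Each group was 1 array of RNA pooled from 4 mice, so animals of a group cannot be compared. Below, 4 signals in a row follow the order in which the groups are named here.

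SREBP transcription factors are made as precursors in the membrane of the endoplasmic reticulum. When sterols are scarce, SCAP escorts them to the Golgi, where proteases release the active factor, and INSIG proteins hold SCAP back when sterols are plentiful. SREBP-1c, a product of Srebf1, mainly drives fatty acid genes and is itself raised by insulin and by the liver X receptor (LXR), while SREBP-2, the product of Srebf2, mainly drives sterol genes. In the kidney these pathways supply membrane lipids and, in excess, the lipid droplets seen in diabetic kidney disease.

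Promoter sequence is shown for 6 members. Srebf1, Fasn and Insig1 were lowest in diabetic sham mice or in both diabetic groups. Idi1 and Msmo1 of the sterol branch were highest in diabetic uninephrectomy mice, and Hmgcs1 of the same branch varied little. Each run is the 250 bases before a RefSeq gene start, 5′ to 3′ on the gene's strand, from a RefSeq promoter table of build GRCm38.p6. Capitals mark CCAAT (bound by NF-Y, a partner of SREBP), the sterol regulatory element pattern TCACNCCAC and a pattern of the LXR element, each on either strand.
Srebf1, chr11:60210472-60210721, minus strand: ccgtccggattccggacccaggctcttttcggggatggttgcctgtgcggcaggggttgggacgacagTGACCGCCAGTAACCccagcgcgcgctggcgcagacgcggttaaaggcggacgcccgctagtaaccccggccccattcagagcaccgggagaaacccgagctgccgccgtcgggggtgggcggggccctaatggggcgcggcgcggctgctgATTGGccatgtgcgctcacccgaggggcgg
Fasn, chr11:120824548-120824797, minus strand: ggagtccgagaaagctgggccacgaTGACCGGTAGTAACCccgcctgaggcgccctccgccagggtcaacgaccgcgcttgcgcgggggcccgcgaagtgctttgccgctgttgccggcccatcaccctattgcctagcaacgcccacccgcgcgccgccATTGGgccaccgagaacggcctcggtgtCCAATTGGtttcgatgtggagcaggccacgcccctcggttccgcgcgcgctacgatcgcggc
Insig1, chr5:28071162-28071411, plus strand: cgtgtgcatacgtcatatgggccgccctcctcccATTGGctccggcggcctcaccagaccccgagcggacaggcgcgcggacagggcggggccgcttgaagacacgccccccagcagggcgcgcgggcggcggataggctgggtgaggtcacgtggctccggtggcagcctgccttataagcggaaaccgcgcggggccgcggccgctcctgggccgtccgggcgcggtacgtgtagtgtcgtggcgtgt
Hmgcs1, chr13:119690101-119690350, plus strand: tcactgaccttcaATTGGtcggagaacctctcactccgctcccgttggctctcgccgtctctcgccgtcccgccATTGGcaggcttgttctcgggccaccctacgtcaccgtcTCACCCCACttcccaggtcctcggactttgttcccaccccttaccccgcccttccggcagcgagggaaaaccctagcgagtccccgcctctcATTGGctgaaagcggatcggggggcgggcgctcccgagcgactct
Idi1, chr13:8885356-8885605, plus strand: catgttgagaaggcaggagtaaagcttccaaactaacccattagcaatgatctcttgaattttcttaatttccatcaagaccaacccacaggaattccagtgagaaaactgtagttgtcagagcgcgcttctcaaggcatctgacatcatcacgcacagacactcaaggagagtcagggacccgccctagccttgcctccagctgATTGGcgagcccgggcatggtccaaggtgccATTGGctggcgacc
Msmo1, chr8:64733579-64733828, minus strand: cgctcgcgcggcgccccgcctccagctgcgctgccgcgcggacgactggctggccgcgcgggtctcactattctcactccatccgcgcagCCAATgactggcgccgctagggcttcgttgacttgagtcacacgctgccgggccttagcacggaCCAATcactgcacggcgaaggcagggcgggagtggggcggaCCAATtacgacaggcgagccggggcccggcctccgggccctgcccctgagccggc

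The table held 28 of the 35 members. Scd1, Scd2, Fads1, Fdps, Fdft1, Sqle and Stard4 had no entry. CCAAT stood in at least 1 window of 11 of 12 sterol branch genes, 6 of 11 fatty acid branch genes and 4 of 5 regulators, and in 33.8% of all windows (37.5% of genes). The sterol regulatory element pattern stood in 1 member, Hmgcs1, and in 1.05% of all windows. The LXR pattern stood in Fasn and in 1 of the 3 Srebf1 windows, the one printed, and in 0.295% of all windows. It was written after the element known from the Srebf1 promoter, so the Srebf1 match is no result. In the Fasn window a CCAAT on the gene's strand overlaps one on the opposite strand. GGGCGG, bound by SP1, another partner of SREBP, stood in 11 of 12 sterol branch genes, 6 of 11 fatty acid branch genes and 32.7% of all windows, and CACGTG in 5 of 28 members and 6.02% of windows. These are matches of letters, not sites of binding, and which start each probe set reads was not tested.

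Kidney markers were bright on every array, with signals of 36353 to 48279 for Umod (thick ascending limb), 11213 to 17136 for Slc34a1 (proximal tubule) and 1446 to 3583 for Aqp2 (collecting duct). Signals are the deposited linear intensities, and differences are on the log2(signal + 26.4) scale, which makes those of dim genes smaller than their ratio. Median signals of the 4 arrays lay between 106.8 and 119.3. Setting these medians equal shifted the median difference of all genes by up to 0.13 (uninephrectomy in nondiabetic mice), and the members whose sign changed with it had differences no larger than 0.12. A difference between 2 single arrays is given without replicate check or p-value. The test used was limma's moderated test of an additive model (diabetes and surgery, all 4 arrays), fitted on 11197 expressed genes where 1 degree of freedom came from the gene's own residual and 59.5 from the prior over all genes. With 1 array a group, that residual is how far the diabetes difference departs between sham and uninephrectomised mice. The SEs and p-values therefore do not measure the spread between mice or between pools. "Rose" and "fell" are kept for genes past a Benjamini-Hochberg adjusted p of 0.05 over all these genes.

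Among the regulators, Srebf1 differed most. Its nondiabetic signals were 2032.6 (sham) and 1911.8 (uninephrectomy), and its diabetic signals were 1004 and 1044.5. Both diabetic signals lay well below both nondiabetic ones, at 0.494 times in sham and 0.546 times in uninephrectomised mice. The mean log2 difference was -0.93 ± 0.16 (limma SE), and Srebf1 fell with diabetes (limma adjusted p = 9.5e-05). Surgery left it nearly level, with differences of -0.09 and 0.06. The call was lost in 4 of the alternative fits, where the limma adjusted p lay between 0.054 and 0.23 at the same size of difference.

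Insig1, the feedback inhibitor that is itself an SREBP target, had signals of 1149.1, 1092.1, 680.8 and 854.1. It was lower in both diabetic groups, more so in sham (log2 -0.73) than in uninephrectomised mice (-0.35), and its mean of -0.54 ± 0.18 did not pass (limma adjusted p = 0.12). Insig2, the isoform that is not driven by SREBP, lay between 2006.5 and 2195.6 on its brightest probe set, but another read 1324.6, 792, 947.9 and 993.1, which is -0.47 in sham and 0.32 in uninephrectomised mice for diabetes. Scap, the escort protein, was higher by 0.22 in both arms, with signals of 1535.8 and 1412.2 in nondiabetic and 1795.7 and 1646.6 in diabetic mice. Srebf2 was dim, at 235.3, 304.1, 198.1 and 258.2. It was lower by 0.22 in both arms of diabetes and higher by 0.34 in both arms of uninephrectomy (limma adjusted p = 0.96 and 1). Srebf2's second probe set, dimmer still at 151.1, 249.6, 139.6 and 97.2, went against the surgery direction in diabetic mice: uninephrectomy differences were 0.64 in nondiabetic and -0.43 in diabetic mice, and diabetes differences -0.10 in sham and -1.16 in uninephrectomised mice.

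**Figure D1:**
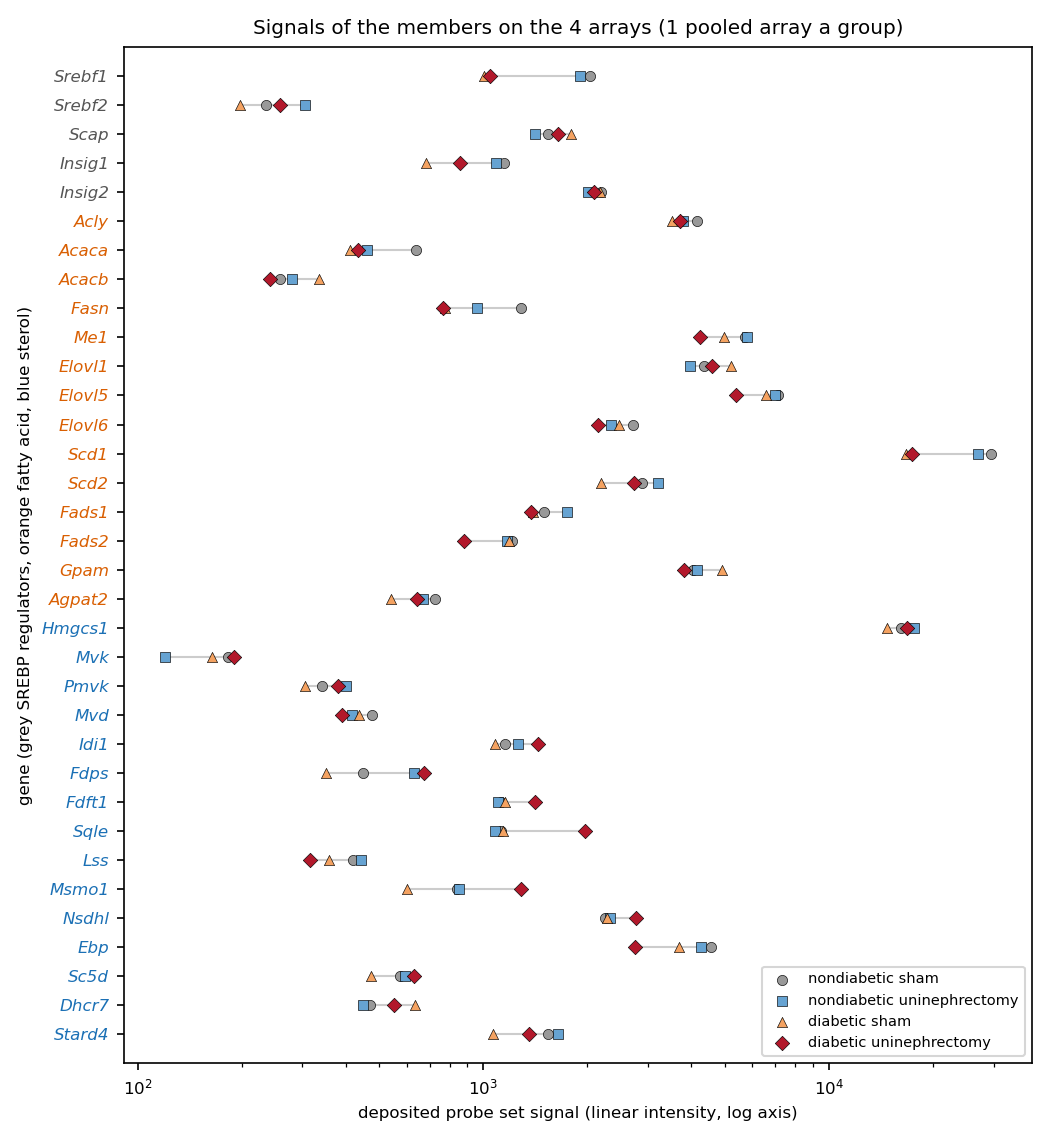
Deposited signal (x axis, linear intensity on a log axis) of the 34 measured members (y axis), 1 probe set a gene, with 1 point for each of the 4 pooled arrays and a grey line over their range; rows are read across the arrays, not against each other. The 2 diabetic points of Srebf1 (1004 and 1044.5) and Scd1 sit apart from the 2 nondiabetic ones, and Sqle and Msmo1 are highest in diabetic uninephrectomy mice (1966.9 and 1289.2).

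In the fatty acid branch, signals were lower in diabetic kidneys for most genes. Both diabetic arrays lay below both nondiabetic arrays for 9 of the 14 genes (Acly, Acaca, Fasn, Me1, Elovl5, Scd1, Scd2, Fads1 and Agpat2), against 18.6% of all expressed genes, and above them for 1, Elovl1, against 19.1%. With the array medians set equal the first count was 6 of 14, against 16.1%. By limma, 1 of 14 fell with diabetes and 0 rose, beside 0.75% and 1.48% of all expressed genes. At an unadjusted p below 0.05, 4 of 14 were lower and 0 higher, beside 4.1% and 5.43% of all expressed genes. In both arms 11 of 14 were below 0, against 26.1%.

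Scd1, the delta-9 desaturase that makes oleate and palmitoleate, was the gene that fell. Its nondiabetic signals were 29396.8 and 27031.7, and its diabetic signals 16707.4 and 17370.4. The groups did not overlap, and the ratios were 0.568 in sham and 0.643 in uninephrectomised mice. The mean log2 difference was -0.73 ± 0.20 (limma adjusted p = 0.031). Scd1's second probe set gave 1275.2, 900.1, 558 and 618, a mean difference of -0.84. The call was lost in 5 alternative fits, with limma adjusted p between 0.13 and 0.38.

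Fasn, the synthase that builds palmitate, had signals of 1287.2, 957.9, 774.7 and 766.9. It was highest in nondiabetic sham mice and level in the 2 diabetic groups. Its differences with diabetes were -0.71 and -0.31 (mean -0.51 ± 0.18, limma adjusted p = 0.15). Acaca, the carboxylase that makes malonyl-CoA for synthesis, was likewise highest in nondiabetic sham mice, with 637.2, 461.5, 411.7 and 434.1. Its diabetes differences were -0.60 and -0.08, and their mean of -0.34 ± 0.22 did not pass (limma adjusted p = 0.76). Acacb, the carboxylase whose malonyl-CoA restrains fatty acid oxidation, had opposite signs in the 2 arms, 0.34 and -0.19.

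The other genes of the branch are given here although none of them differed by 1.5-fold in any pair of arrays on the probe set used for the gene. Suppliers of precursor came first: Acly, which makes cytosolic acetyl-CoA, had differences of -0.24 and -0.03, and Me1, malic enzyme, a source of NADPH, -0.20 and -0.45. Me1 signals were 5734.6, 5793.5, 4976.8 and 4236.5. The other Me1 probe set, at 4543.8, 4010.8, 3512.5 and 3690.2, had the arms in the opposite order, -0.37 in sham and -0.12 in uninephrectomised mice. Among elongases, Elovl5 was lower in diabetic uninephrectomy mice (5382.6) than in the other groups (6574.2 to 7136.3). Elovl6, which extends palmitate to stearate, differed by -0.13 and -0.12. Elovl1, which makes very long saturated chains, was higher in both arms (0.26 and 0.21), and all 4 of its expressed probe sets had a positive mean.

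Scd2, the second desaturase, had signals of 2871.7, 3204.8, 2187.7 and 2730.9. It was lower with diabetes in both arms (-0.39 and -0.23) and higher after uninephrectomy in both (0.16 and 0.32). Fads1 and Fads2, the delta-5 and delta-6 desaturases of polyunsaturated fatty acids, differed with diabetes by -0.34 and -0.40 after uninephrectomy and by -0.10 and -0.03 in sham mice on their brightest probe sets. The other expressed Fads2 probe sets did not share this pattern of arms: one differed by -0.89 in sham and -0.41 in uninephrectomised mice and the other by -0.64 and -0.86. The dimmer Fads1 probe set differed by 0.24 in sham and -0.19 in uninephrectomised mice. In glycerolipid synthesis, Gpam, which adds the first acyl chain to glycerol phosphate, differed by 0.28 and -0.12, and Agpat2, which adds the second, by -0.41 and -0.05.

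**Figure D2:**
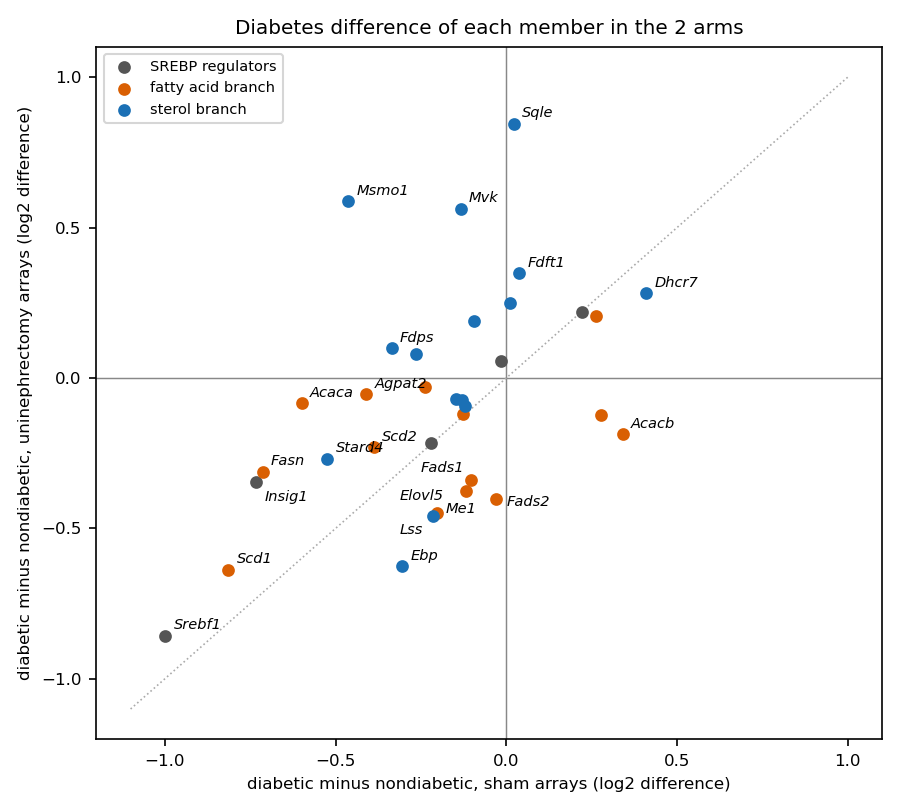
Log2 difference between the diabetic and the nondiabetic array in sham mice (x axis) and in uninephrectomised mice (y axis), 1 point a gene, coloured by group; the dotted line marks equal differences, and the 2 axes share no array. Of the 14 fatty acid genes 11 lie below 0 on the x axis and 13 on the y axis (51.4% of all expressed genes), while 9 of the 15 sterol genes lie above 0 on the y axis. With array medians set equal the 13 becomes 10, and the median of all expressed genes on the y axis becomes 0.11.

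In the sterol branch, the difference with diabetes was mostly below 0 in sham mice and mixed in uninephrectomised mice. In sham mice 11 of 15 genes were below 0 (median -0.13), against 48.3% of all expressed genes. In uninephrectomised mice 9 of 15 were above 0 (median 0.10), against 48.6%. With array medians set equal 12 of 15 were above 0 (median 0.22), but the median of all expressed genes was then 0.11. The sterol median of 0.10 turned to -0.0788 when probe sets were averaged and to -0.0693 over every probe set. Both diabetic arrays lay below both nondiabetic arrays for 3 genes (Lss, Ebp and Stard4) and above them for 3 (Fdft1, Sqle and Dhcr7), against 18.6% and 19.1% of all expressed genes. The first count was 7 of 13 when probe sets were averaged, and the second was 1 with array medians set equal. By limma 0 of 15 passed for diabetes, with 1 higher (Sqle) and 2 lower (Ebp and Stard4) at an unadjusted p below 0.05. Over all expressed genes 1.48% rose and 0.75% fell, and 5.43% were higher and 4.1% lower at the unadjusted p.

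Sqle encodes squalene epoxidase, the first oxygen-requiring step of sterol synthesis. Its signals were 1125.4, 1083.3, 1142.8 and 1966.9. Only the last array stood apart, at 1.82 times the nondiabetic uninephrectomy and 1.72 times the diabetic sham signal. Its mean difference with diabetes was 0.43 ± 0.17 (limma adjusted p = 0.27) and with uninephrectomy 0.36 ± 0.17 (limma adjusted p = 0.83). Sqle has a single probe set here.

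Msmo1, the sterol methyl oxidase that removes methyl groups from lanosterol derivatives, had signals of 838.4, 849.3, 600.8 and 1289.2. The diabetic sham array was the lowest of the 4 and the diabetic uninephrectomy array the highest. The difference with uninephrectomy was 0.02 in nondiabetic and 1.07 in diabetic mice (limma adjusted p of the mean = 0.33). Fdps, which makes farnesyl diphosphate, had signals of 449.3, 628.6, 350.5 and 675.4. Both uninephrectomy arrays were above both sham arrays, at 1.40 times in nondiabetic and 1.93 times in diabetic mice. Its mean of 0.68 ± 0.21 did not pass (limma adjusted p = 0.20). Idi1, which isomerises isopentenyl diphosphate just before Fdps, differed by 0.12 and 0.40 with uninephrectomy, and its second probe set, with 653.5, 649, 476.3 and 976.1, was 2.05 times higher in diabetic uninephrectomy than in diabetic sham mice.

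Ebp, the sterol isomerase, went the other way, with signals of 4567.8, 4261.8, 3690.8 and 2755.6. It was lowest in diabetic uninephrectomy mice, at 0.647 times the nondiabetic uninephrectomy signal, and its mean difference with diabetes was -0.46 ± 0.15 (limma adjusted p = 0.12). Lss, lanosterol synthase, was also lowest there (420.6, 442.4, 358.7 and 315.1). Dhcr7, the last reductase before cholesterol, was higher in both diabetic groups, with 635.1 and 551 against 471.6 and 448.1. Stard4, a sterol carrier rather than an enzyme, was lower with diabetes in both arms (-0.52 and -0.27; limma adjusted p = 0.30). All 3 of its expressed probe sets had a negative mean, between -0.66 and -0.38.

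Of the early steps, Hmgcs1, HMG-CoA synthase, varied little, between 14760.3 and 17680.1. Mvk was dim and had 120.1 in nondiabetic uninephrectomy mice against 164.6 to 190 elsewhere. Pmvk was 0.22 and 0.30 higher after uninephrectomy and Mvd, on its brightest probe set, 0.18 and 0.15 lower. The second Mvd probe set differed by -0.08 in nondiabetic and 0.13 in diabetic mice. Fdft1, squalene synthase, was 0.28 higher and Nsdhl, a decarboxylating dehydrogenase, also 0.28 higher after uninephrectomy in diabetic mice, against -0.03 and 0.04 in nondiabetic mice. Sc5d, a desaturase near the end of the pathway, differed by 0.04 and 0.39 with uninephrectomy.

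After uninephrectomy both operated arrays lay above both sham arrays for 7 of 15 sterol genes (Hmgcs1, Pmvk, Idi1, Fdps, Msmo1, Nsdhl and Sc5d) and 0 of 14 fatty acid genes, against 13.6% of all expressed genes. They lay below them for 1 (Mvd) and 2 (Elovl6 and Fads2), against 15.4%. The latter count was 4 with array medians set equal and 1 when probe sets were averaged. The other expressed Fads2 probe sets were not lower in both arms: one was higher by 0.16 in nondiabetic and 0.64 in diabetic mice, and the other differed by 0.11 and -0.11. Another Mvd probe set differed by -0.08 and 0.13, and a dim one of Elovl6 by -0.15 and 0.49. Among the 7 higher sterol genes, a dimmer probe set was lower in nondiabetic mice for Hmgcs1 (-0.15), Idi1 (-0.01) and Sc5d (-0.26). The sterol count was 3, against 9.4%, with array medians set equal, and 4 of 13 when probe sets were averaged. By limma 0 of the 34 members passed for uninephrectomy, beside 0.339% of all genes that rose and 0.179% that fell. At an unadjusted p below 0.05, 3 members were higher (Fdps, Msmo1 and Sqle) and 0 lower, beside 3.19% and 2.48%.

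**Figure D3:**
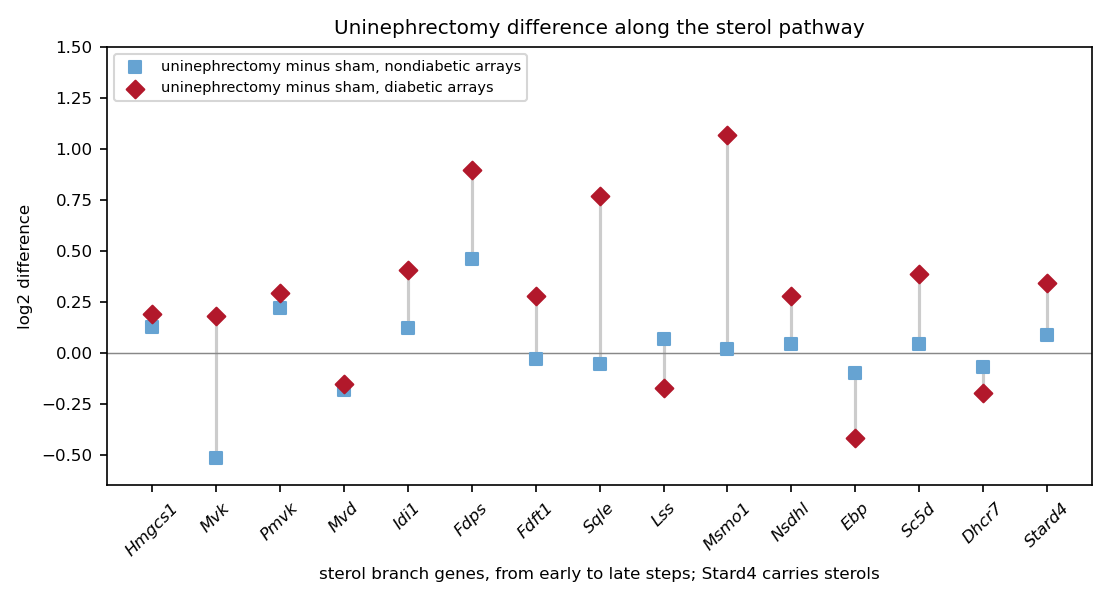
Log2 difference between the uninephrectomy and the sham array (y axis) for the 15 sterol branch genes in pathway order (x axis), squares for nondiabetic and diamonds for diabetic mice, joined by a line for each gene. In diabetic mice Msmo1 (1.07), Fdps (0.90) and Sqle (0.77) stand highest and Ebp (-0.42) lowest.

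Set side by side, the branches had like medians in the sham arm of diabetes. The median differences of the fatty acid and sterol branch were -0.16 and -0.13 for diabetes in sham mice, and -0.21 and 0.10 for diabetes in uninephrectomised mice. For uninephrectomy they were -0.08 and 0.04 in nondiabetic mice (-0.21 and -0.09 with array medians set equal) and -0.10 and 0.28 in diabetic mice. This last pair was -0.0469 and 0.14 with averaged probe sets, -0.0006 and 0.25 over every probe set, and -0.0226 and 0.36 with array medians set equal. Without these alternatives, medians over all expressed genes lay between -0.02 and 0.01. With array medians set equal, those of all expressed genes for uninephrectomy were -0.13 in nondiabetic and 0.06 in diabetic mice. Genes at least 1.5-fold lower with diabetes in sham mice numbered 3 of 14 (Acaca, Fasn and Scd1) and 0 of 15, against 3.13% of all expressed genes. In uninephrectomised mice 1 fatty acid gene (Scd1) and 1 sterol gene (Ebp) were lower, against 6.05%, and 0 and 2 (Sqle and Msmo1) were higher, against 6.42%. In diabetic mice 0 of 14 and 3 of 15 (Fdps, Sqle and Msmo1) were at least 1.5-fold higher after uninephrectomy, against 5% of all expressed genes. Of these 3, Msmo1 was past 2-fold, as were 1.48% of all expressed genes. Fads2 and Idi1 each had another expressed probe set that was higher in this pair, at 1.61 and 2.05 times. Differences above 0 numbered 5 of 14 and 11 of 15 there, against 47.6%. In nondiabetic mice 0 members of either branch were 1.5-fold higher or lower with uninephrectomy, beside 3.82% and 2.81%. The gap between the branches was not tested.

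**Figure D4:**
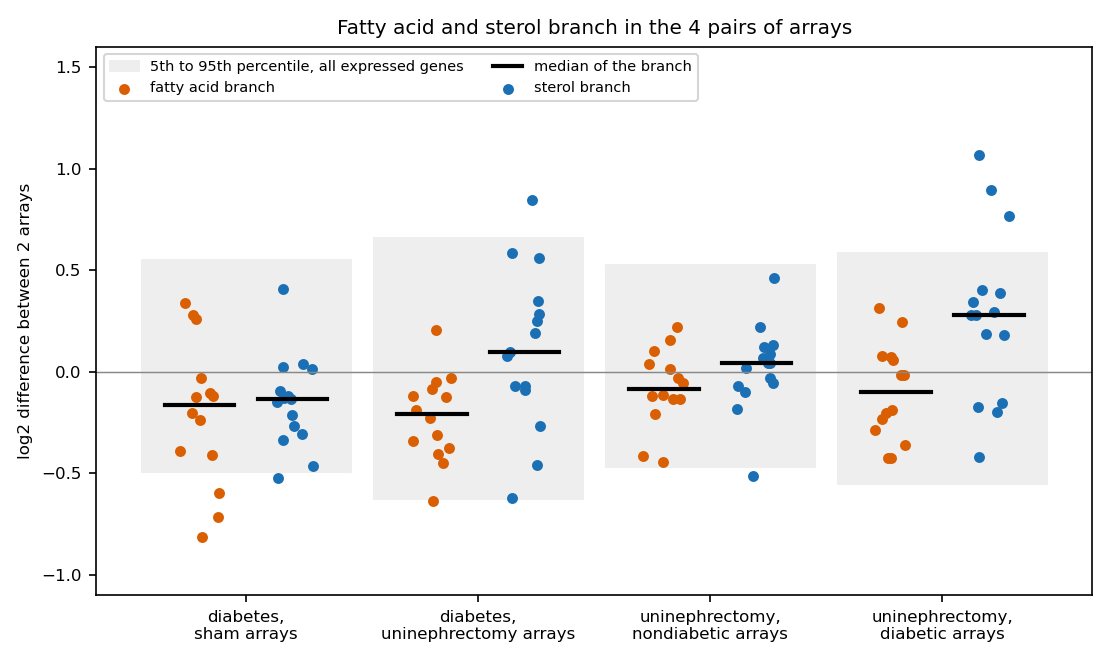
Log2 difference between 2 arrays (y axis) for each fatty acid (orange) and sterol (blue) branch gene in the 4 pairs of arrays (x axis), with the branch median as a bar and the 5th to 95th percentile of all expressed genes in grey. In diabetic mice the medians for uninephrectomy are -0.10 and 0.28, and 3 sterol genes lie above the grey band.

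The difference of effects is the diabetes difference after uninephrectomy minus that in sham mice. Its median was 0.26 in the sterol branch (12 of 15 above 0) and -0.03 in the fatty acid branch (7 of 14 above 0). Over all genes it was -0.01, with 48.5% above 0. With array medians set equal the branch medians were 0.46 (13 of 15 above 0) and 0.18 (8 of 14). All expressed genes shifted too under that setting, with a median diabetes difference of -0.08 in sham and 0.11 in uninephrectomised mice. Msmo1 (1.05), Sqle (0.82) and Mvk (0.70) were at least 1.5-fold higher by the difference of effects, as were 8.64% of all expressed genes. This measure uses all 4 arrays and leaves no residual, so it has no test. Hybridisation spike-ins followed the same division of the arrays: relative to nondiabetic sham, the BioB, BioC, BioD and Cre probe sets were at 1.20 to 1.32 times on the nondiabetic uninephrectomy and diabetic sham arrays and at 0.902 to 0.945 times on the diabetic uninephrectomy array. Control probe sets for 18S ribosomal RNA were at 1.02, 1.32 and 1.88 times on the nondiabetic uninephrectomy, diabetic sham and diabetic uninephrectomy arrays. The part of either in the result was not tested.

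Several cell types moved with the same arrays. In bulk kidney, fewer cells of a type and less RNA per cell cannot be told apart. Fat cells make fatty acids by the same enzymes. Of 9 adipocyte markers 7 had a probe set and 5 reached the filter. Their list summed to 14720.3, 5531.8, 26581 and 13403.6, so it was higher with diabetes while the summed signal of the fatty acid branch was lower (66007.6, 62552.2, 51207.7 and 48302.3). Bright genes weigh most in such sums. Scd1 alone had 29396.8, 27031.7, 16707.4 and 17370.4 of the branch sum. Car3 and Fabp4 made up most of the adipocyte sum, while Retn and Lipe had mean diabetes differences of 0.07 and -0.05. The adipocyte sum was lower after uninephrectomy in both nondiabetic and diabetic mice. Fasn and Acaca were lower after uninephrectomy in nondiabetic mice (-0.42 and -0.44) and level in diabetic mice (-0.01 and 0.07). Over the whole fatty acid branch these medians were -0.08 and -0.10. Adipoq, the fat cell hormone adiponectin, fell by 2.66 with uninephrectomy and rose by 1.26 with diabetes (limma). None of 4 brown fat markers reached the filter. Of 6 expressed macrophage markers 5 were at least 1.5-fold higher after uninephrectomy in diabetic mice, against 5% of all expressed genes. The exception, Csf1r, was the brightest of the 6 and differed by -0.19. The macrophage list summed to 8759.7, 7432.5, 8499.8 and 13992.1, and Sqle, Msmo1 and Fdps were also highest on the last of these arrays. All 10 proximal tubule markers were below 0 with uninephrectomy in diabetic mice (median -0.28), against 52.4% of all expressed genes. All 10 were also below 0 with diabetes in uninephrectomised mice (median -0.43, 3 of them at least 1.5-fold lower), against 51.4% and 6.05%, in the pair of arrays where 13 of 14 fatty acid genes were below 0 (median -0.21). The markers summed to 229440.2, 243596.7, 216044.2 and 174080.3. By limma, 1 of 6 loop and distal tubule markers, 2 of 6 collecting duct markers and 1 of 4 podocyte markers fell with diabetes, as did 1 of 3 hepatocyte markers (Alb), beside 0.75% of all expressed genes. With diabetes 1 collecting duct marker (Aqp2), 2 of 6 macrophage markers (Lyz2 and Cd14) and 3 of 5 adipocyte markers (Adipoq, Car3 and Fabp4) rose, beside 1.48%. With uninephrectomy 1 macrophage marker (Lyz2) rose and 2 adipocyte markers (Adipoq and Car3) fell, beside 0.339% and 0.179%. Hepatocyte markers summed to 1953.8 to 3159.3 and adrenal cortex markers to 316.6 to 444.9, with 3 and 1 of 5 reaching the filter. The part of these cell types in the results was not tested.

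Other genes of the pathways, from lists that hold no member, gave 2 calls. Of 19 further genes of fatty acid and triglyceride synthesis, 1 fell with diabetes by limma and 0 rose, beside 0.75% and 1.48% of all expressed genes. The list had a median of 0.12 for diabetes in sham mice, with 11 of 19 above 0, and of -0.06 in uninephrectomised mice. Lpin1, a phosphatidate phosphatase that makes diacylglycerol, was higher in both arms (0.52 and 0.40; limma adjusted p of the mean = 0.22). Lpin2, its paralogue, differed by 0.80 and -0.02 on its brightest probe set (limma adjusted p of the mean = 0.31) and by 0.61 and 0.90 on another. The gene that fell was Tecr, the reductase that completes each round of chain elongation, with signals of 4382.8 and 4037.3 in nondiabetic and 2783.2 and 2620.2 in diabetic mice (mean -0.63 ± 0.15, limma adjusted p = 0.0078). Its second probe set, which can share sequence with other genes, was also lower on both diabetic arrays, at 2295.3 and 1952.1 against 2913.2 and 2684.7. The Tecr call was lost in 6 alternative fits, with limma adjusted p between 0.093 and 0.33. Thrsp, a nuclear protein of lipogenic tissues that is abundant in fat, fell with uninephrectomy by 1.75 (limma SE 0.27, adjusted p = 3.2e-05) and was the 1 gene of this list to do so, beside 0.179% of all expressed genes. Its signals of 829.2 and 376.5 in sham and 143.6 and 154 in uninephrectomised mice had the same order by surgery as the adipocyte sum. This call was lost in 3 alternative fits (limma adjusted p between 0.24 and 1). Of 5 expressed sterol synthesis and uptake genes outside the members, 0 passed for either factor. Their median for uninephrectomy in diabetic mice was 0.02, against 0.28 in the sterol branch. Their difference of effects had a median of -0.17 with 2 of 5 above 0, against 0.26 with 12 of 15 in the branch and 48.5% of all expressed genes. Cyp51, the lanosterol demethylase, was lower in both arms of diabetes (-0.42 and -0.24; limma adjusted p = 0.48). Of 9 other regulators and LXR targets 0 passed for either factor, and 0 were at an unadjusted p below 0.05 for either.

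Where a gene had more than 1 expressed probe set, these served as a second reading of the same RNA. Of 18 such members, 16 had a mean difference with diabetes of the same sign on all of them. The exceptions were Insig2, with means between -0.08 and 0.02, and Fads1, with -0.22 and 0.02. For this mean, sizes varied more than signs: Hmgcs1 ranged from -0.36 to -0.06 over 5 probe sets. For uninephrectomy in diabetic mice, signs differed between probe sets of Srebf2 (-0.43 and 0.34), Elovl6 (-0.28 to 0.49), Fads2 (-0.43 to 0.64) and Mvd (-0.15 and 0.13). They also differed for Insig2, Me1, Elovl1 and, with a lowest value of -0.0015, Hmgcs1. Probe sets whose name ends in x_at or s_at can share sequence with other genes, and they stand for Elovl1, Elovl5, Hmgcs1, Fdft1 and Lss.

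**Figure D5:**
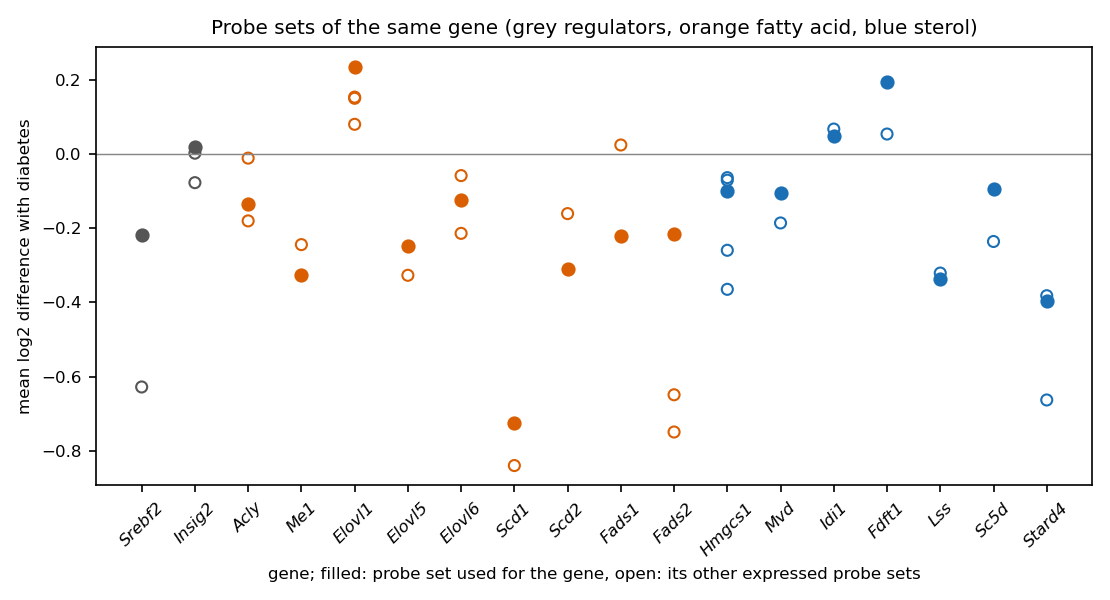
Mean log2 difference with diabetes over both arms (y axis) for every expressed probe set of the 18 members with more than 1 (x axis), filled for the probe set used for the gene and open for its others. Both Scd1 probe sets lie below 0 (-0.73 and -0.84), and Insig2 and Fads1 have probe sets on both sides of 0.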

How the data were processed

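The authors deposited linear intensity values for 45101 probe sets on 4 arrays, already summarised from single probes; their software and background step are not stated in the labels. Per the labels' protocols, 100 ng of each RNA pool was labelled with biotin. The mean without the top and bottom 2% was 500.003 on each array, so the values were scaled before deposit. GEO's platform annotation gave 1 symbol for 34945 probe sets, several for 932 and none for 9160 (64 are controls). Of the 34945, a RefSeq table (GRCm38.p6) held 34741 and changed 0 symbols. Each gene was represented by its brightest probe set, and genes with a mean log2 value of at least 7.06, the median over all probe sets, counted as expressed. The offset of 26.4 is the 20th percentile of all values. limma 3.58.1 in R 4.3.3 was used with a trend in the prior and was checked on simulated data. Alternatives were quantile normalisation, equal array medians, the filter dropped or raised to the 75th percentile, averaged or single probe sets, offsets of 1 and 72.5, limma without a trend or without the other factor, an adjusted p below 0.1, a 2-fold threshold, branches without Gpam and Agpat2 or Stard4, and, added after seeing the data, no x_at and s_at probe sets. Members with a 1.5-fold difference in any pair or a call were described in full by rule; other members and probe sets named were chosen after their values were seen. The members, branches and lists were chosen with earlier results of these data known. With 4 arrays in all, precision is limited by their number.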

Additional observations from a re-analysis of the deposited data

Results flagged for a closer look

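Members whose difference had opposite signs in the 2 arms of a factor, with arms at least 1.5-fold apart, were marked. None of these differences could be tested, as each rests on 4 single arrays. Msmo1 differed with diabetes by -0.46 in sham and 0.59 in uninephrectomised mice, 1.05 apart. Mvk differed with diabetes by -0.13 and 0.56 and with uninephrectomy by -0.52 in nondiabetic and 0.18 in diabetic mice, 0.70 apart in each case, and is dim, with its lowest signal of 120.1 in nondiabetic uninephrectomy mice. Sqle differed with uninephrectomy by -0.05 in nondiabetic and 0.77 in diabetic mice, 0.82 apart.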

How the results depend on the processing

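Of 2 members past the limma adjusted p for diabetes, 1 (Srebf1) remained when every probe set was tested on its own, and 0 with averaged probe sets, no filter, the other factor left out, or no trend; the cause was not tested. For uninephrectomy 0 passed under every alternative run. The fatty acid median for diabetes in sham mice (-0.16) was -0.24 over every probe set, -0.29 with averaged probe sets, -0.25 with equal array medians, -0.20 with the stricter filter and -0.22 without x_at and s_at probe sets. After uninephrectomy (-0.21) it was -0.15, -0.28 and -0.0881 under the first 3 of these and -0.27 without Gpam and Agpat2. The median for uninephrectomy in nondiabetic mice (-0.08) was -0.0565 over every probe set, -0.21 with equal array medians and -0.11 with the stricter filter. In diabetic mice (-0.10) it was -0.0006 over every probe set, -0.0469 with averaged probe sets, -0.0226 with equal array medians, -0.12 with quantile normalisation, -0.0146 with the stricter filter and -0.0144 without x_at and s_at probe sets. The sterol median for diabetes after uninephrectomy (0.10) was -0.0693 over every probe set and -0.0788 with averaged probe sets. Equal array medians also shifted the medians of all expressed genes. For diabetes these were then -0.08 in sham and 0.11 in uninephrectomised mice. For uninephrectomy they were -0.13 in nondiabetic and 0.06 in diabetic mice. No paired analysis was possible because each group is 1 array. Dim genes such as Mvk and Srebf2 lie closest to the filter.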

Other observations

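Outside the members, 2 genes of lipid handling chosen after their values were seen differed between arms. Abca1, the LXR target that exports cholesterol, has a single expressed probe set and was highest in diabetic uninephrectomy mice, with differences for diabetes of -0.35 in sham and 0.59 in uninephrectomised mice. Rxra, the partner receptor of LXR and PPAR proteins, differed by 0.37 and -0.76 on its brightest probe set and by -0.29 and -0.26 on its other expressed one. These differences of effects were not tested.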
